A study of Arabidopsis thaliana with 4 samples.

Results

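The comparison of ABR17 plants with wild type plants without added salt rests on 2 arrays of the 4 in the series, chosen by their labels: 1 array of seedlings expressing ABR17, called ABR17_control, and 1 array of wild type seedlings, called WT_control. Both groups are whole seedlings of Arabidopsis thaliana grown on Murashige and Skoog medium with 0 mM NaCl under long days, for a time given both as 2 weeks and as 7 days. ABR17 is an abscisic acid-responsive gene of the pathogenesis-related PR10 family, taken from pea as a cDNA. The other pair of arrays, ABR17_salt and WT_salt, came from the same genotypes on 100 mM NaCl. The sources used here do not give the promoter that drives the transgene, the number of transgenic lines or the number of seedlings behind an array. The design text speaks of 3 biological replicates, but each group has 1 array, so no difference below has a replicate check and no p-value is given. The arrays carry miRNA probes and no marker genes of tissues, so the label "seedling" could not be checked against such genes.

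MicroRNAs (miRNAs) of plants are short RNAs, cut from hairpin transcripts by DICER-LIKE1, that guide ARGONAUTE1 to messenger RNAs with a nearly complete match. The targets are then cleaved or their translation is held back. In seedlings many of the older families act on transcription factors that set leaf shape, meristem activity and the passage from the juvenile to the adult phase, whereas younger families found in Arabidopsis and its relatives often act on genes of secondary metabolism or on pentatricopeptide repeat (PPR) genes.

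Each array had 2556 spots for Arabidopsis miRNAs, 12 for each miRNA, beside 1120 blank spots. Detection required that 50% or more of a miRNA's spots on the array exceeded the mean of the blanks by 3 of their SD. By this rule 30 miRNAs were detected on both arrays, 9 on WT_control only, none on ABR17_control only, and 174 on neither. The names of all 39 detected miRNAs matched a locus in the RefSeq gene table of TAIR10.1. Where 1 sequence is made from several loci, the locus given is that of the name on the array.

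The target sequences of the probes on which the comparison turns are shown first, as listed with the spots, from 5′ to 3′ with the seed (bases 2 to 8) in capitals. They are the 4 miRNAs that differed by at least 2-fold and the near relatives that the array also measured, so that nearly identical targets can be read side by side.
miR163 (AT1G66725): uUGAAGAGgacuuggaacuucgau
miR164c (AT5G27807): uGGAGAAGcagggcacgugcg
miR164a (AT2G47585): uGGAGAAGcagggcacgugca
miR156h (AT5G55835): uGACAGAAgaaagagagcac
miR157d (AT1G48742): uGACAGAAgauagagagcac
miR157a (AT1G66783): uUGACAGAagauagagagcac
miR156a (AT2G25095): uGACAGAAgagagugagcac
miR156g (AT2G19425): cGACAGAAgagagugagcac
miR5021 (AT2G08235): uGAGAAGAagaagaagaaaa
Counted from 1 at the 5′ end, miR164a and miR164c differ by A21G. The substitution between miR156h and miR157d is A11U, and those between miR156a and miR156h are G11A and U14A. The sequence of miR157a is that of miR157d with 1 more base at the 5′ end, which shifts its seed by that base. For miR163, at 24 bases the longest sequence among the detected miRNAs, the nearest other target on the array differed at 12 places, overhanging ends included, and for miR5021 at 8. The sequence of miR5021 is 95% purines, with a single U at its 5′ end.

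The 2 arrays differed in brightness before any miRNA is considered. Blank spots averaged a density of 111 ± 13.2 on ABR17_control and 231 ± 22.2 on WT_control (SD of 1120 spots each), and the detection threshold was 151 on ABR17_control and 298 on WT_control. The median spot of a miRNA probe read 103 on ABR17_control, below the blank mean of that array, and 239 on WT_control. All 30 miRNAs detected on both arrays had a higher mean density on WT_control. After subtraction of the blank mean 29 of the 30 were still brighter on WT_control, and their ABR17_control to WT_control ratio had a median of 0.653 and ran from 0.0956 to 1.19. Among the calibration probes, 10 of the 11 whose names end in 3P were dimmer on ABR17_control as well, with a median ratio of 0.765 (range 0.125 to 1.35). The calibration probe PUC2MM read 1176 ± 180 on ABR17_control and 11421 ± 889 on WT_control (SD of spots). Of the 6 probes for 5S rRNA, 4 were dimmer on ABR17_control, with ratios from 0.581 to 1.24. Whether these differences in brightness have a part in the results for single miRNAs was not tested.

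Levels were therefore compared after background correction with the normexp method and quantile normalisation over the miRNA probes, in which the value of a rank is fixed across arrays. A difference is ABR17_control minus WT_control on the log2 scale and is relative to the other miRNAs of the same arrays. A miRNA was counted higher or lower where the difference was at least 1 (2-fold) and the repeat spots of the arrays did not overlap. The quoted SE comes from the 12 spots on each array and covers spotting and scanning alone. Of the 39 miRNAs, 2 were counted higher (5.13%) and 2 lower (5.13%), together 10.3%. A total of 13 (33.3%) differed by 0.5 or more, 7 of them higher and 6 lower. Another 19 had values between −0.40 and 0.46. The −0.40 is only a bound: miR158a was not above background on ABR17_control, and its measured difference was −1.47. A further 7 gave no value: they were detected on WT_control only, at levels no higher than the lowest level detected on ABR17_control.

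**Figure D1:**
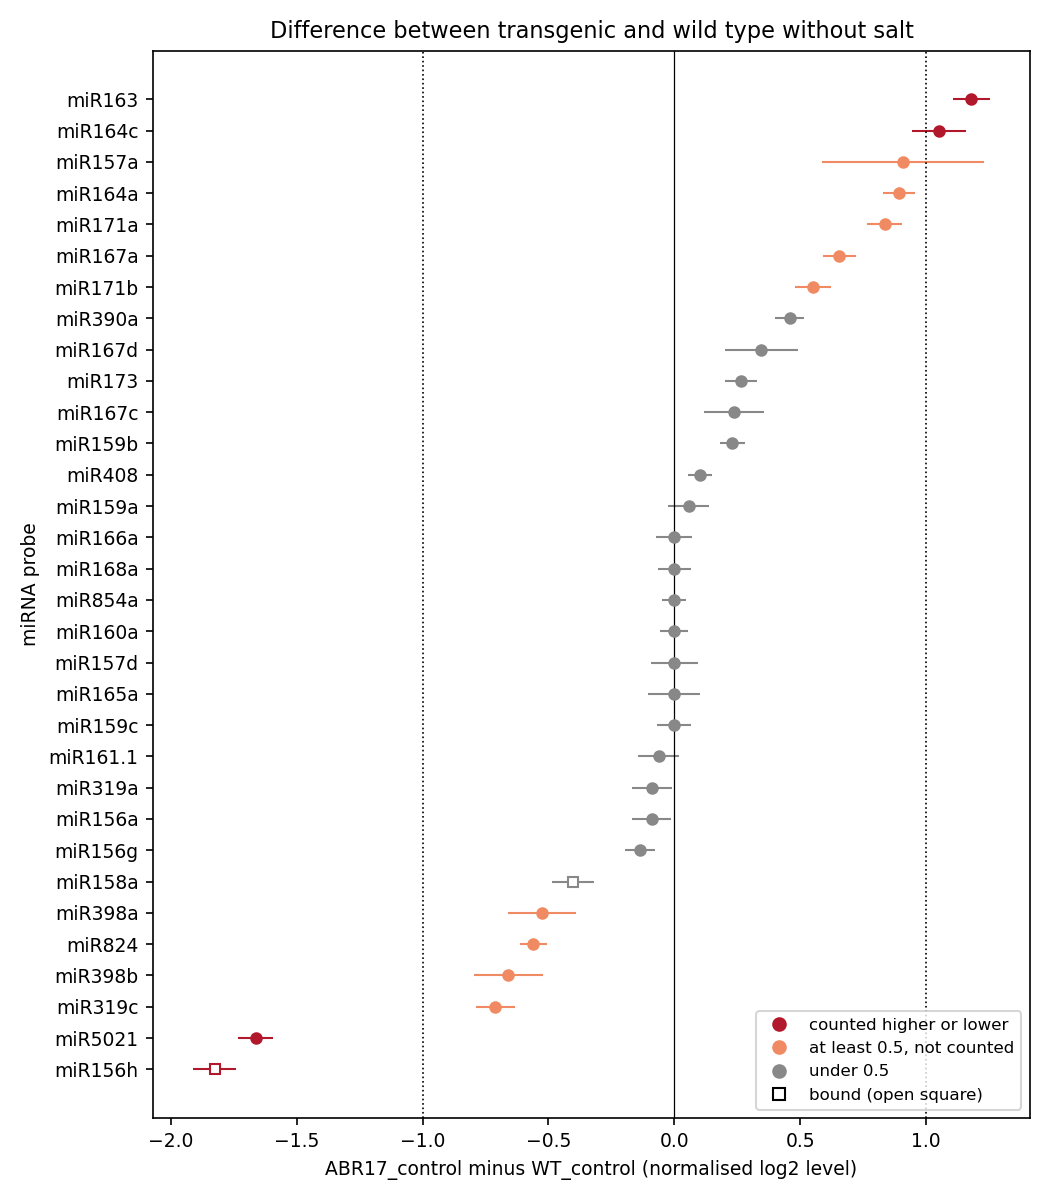
Difference between ABR17_control and WT_control (horizontal axis, normalised log2 level) for the 32 miRNA probes with a value (vertical axis), with bars for the SE of the repeat spots and dotted lines at the 2-fold limits. The 4 counted miRNAs are miR163 and miR164c above 1 and miR5021 and miR156h below −1, the last as a bound (open square). The bar of a bound is the SE of the measured levels.

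The highest difference was that of miR163, a miRNA of Arabidopsis and its relatives whose targets are S-adenosylmethionine-dependent methyltransferases. Its 12 spots read 277 to 381 on ABR17_control (median 353) and 369 to 484 on WT_control (median 431). The densities overlapped and were higher on WT_control at all 12 matched positions, but they stood on blank levels of 111 and 231. After subtraction of the blank means miR163 reached 230 on ABR17_control and 193 on WT_control. It was the single miRNA of the 30 with a ratio over 1 (1.19). After normalisation its level was 8.26 on ABR17_control and 7.08 on WT_control, a difference of 1.18 ± 0.07 (2.27-fold higher), and it held rank 20 on ABR17_control and rank 31 on WT_control. All 12 matched spot positions gave a higher normalised value on ABR17_control. Normalisation shifts all spots of a probe on an array alike, so these positions are not separate support. The direction held under every alternative tried, from 0.12 without normalisation between arrays to 2.04 with the blank mean subtracted, and the authors' deposited table listed 308 for ABR17_control and 85.2 for WT_control.

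Positive differences were also found for both miR164c and miR164a, which target NAC transcription factors that set organ boundaries. For miR164c the spots read 242 to 411 on ABR17_control (median 385) and 379 to 606 on WT_control (median 533). The blank-subtracted means were 253 on ABR17_control and 294 on WT_control, a ratio of 0.86 that lies above the median of 0.653 although miR164c was not the brighter on the transgenic array. Its normalised levels were 8.42 on ABR17_control and 7.37 on WT_control, a difference of 1.05 ± 0.11 (2.07-fold higher), which turned to −0.22 without normalisation between arrays. For miR164a the spots read 304 to 397 on ABR17_control (median 358) and 464 to 611 on WT_control (median 517). Its difference of 0.89 ± 0.07 was under the 2-fold limit and turned to −0.29 without normalisation. It was positive at all 12 positions only after normalisation, which shifts all spots of a probe on an array alike. The relatives differed from each other by 0.16, of the order of their spot errors. In the authors' deposited table miR164a read 320 and miR164c 331 on ABR17_control, against 135 and 138 on WT_control.

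**Figure D2:**
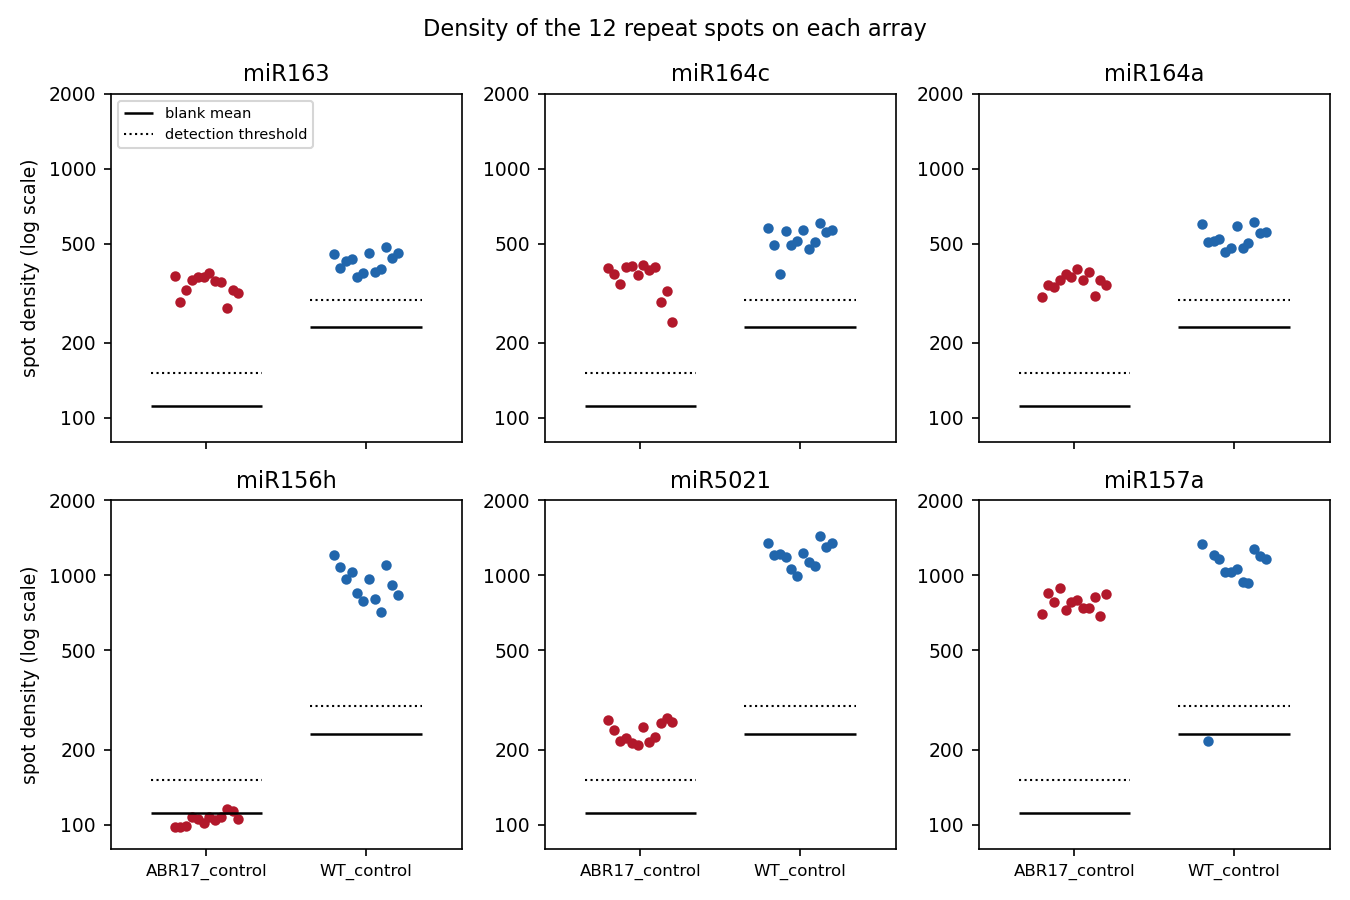
Density of the 12 repeat spots (vertical axis, log scale) of 6 miRNA probes on ABR17_control (left, red) and WT_control (right, blue), with the blank mean of each array as a solid line and its detection threshold as a dotted line. The spots of miR156h lie on the blank level on ABR17_control and between 710 and 1204 on WT_control, and 1 spot of miR157a on WT_control lies below the blank mean.

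The lowest difference was that of miR156h, a member of the miR156 family, which targets SPL transcription factors and keeps plants in the juvenile phase. Its spots read 97.9 to 116 on ABR17_control (median 106), none of them above the threshold, and 710 to 1204 on WT_control (median 939), all of them above it. The groups of spots were far apart, and on ABR17_control the mean relative to the blank mean was −5.85. Since the probe was not above background on ABR17_control the difference is a bound, −1.83 (at least 3.55-fold lower under the main processing). The spot error of 0.09 belongs to the measured levels, not to the bound. The measured normalised levels were 6.29 on ABR17_control and 9.11 on WT_control. It was counted under all 17 alternatives that could change its value. Its values there ran from −2.82 with no detection filter to −1.18 with no background correction. On the same arrays the blank-subtracted ratio was 0.0952 for PUC2MM and 0.416 for PUC2PM. Among calibration probes whose names end in 3M05 or 3M10, Ctr03-3M05 (612) and Ctr03-3M10 (351) averaged above the threshold on WT_control, and none did on ABR17_control. Ctr03-3P read 1232 on ABR17_control and 1690 on WT_control. The part of these probe differences in the miR156h result was not tested.

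The relatives of miR156h did not share that difference. The spots of miR157d, 1 base away, read 505 to 891 on ABR17_control (median 760) and 927 to 1389 on WT_control (median 1147), and its normalised difference was 0.00 ± 0.09. That value is a tie of rank (11 on both arrays), not a measured equality. For miR156a and miR156g the differences were −0.09 ± 0.08 and −0.14 ± 0.06, with overlapping spots, and both turned positive under some alternatives (to 0.35 and 0.39 at most). The value of miR157a, 0.91 ± 0.32 (−0.07 without normalisation), had the widest spot error of the comparison. Its spots read 688 to 892 on ABR17_control (median 782) and 216 to 1337 on WT_control (median 1110), where the lowest stood alone, below the blank mean. With such stray spots left out the difference of miR157a was 0.21, and with the median of repeat spots it was 0.23. Thus 1 of the 5 detected probes of the miR156 and miR157 families was counted lower, and none higher, against 5.13% of the detected miRNAs counted lower and 5.13% higher. With miR172a and miR172b*, both detected on WT_control only and without a value, the phase change list had 7 detected members of 9. Its median was −0.04 over the 4 on both arrays, against 0.00 over all 30. That median leaves out miR156h and had the opposite sign under 6 of 14 alternatives (range −0.35 to 0.37).

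The other miRNA counted lower was miR5021, a late-named miRNA listed for Arabidopsis. Its spots read 208 to 267 on ABR17_control (median 232) and 994 to 1437 on WT_control (median 1216), with no overlap. After subtraction of the blank mean it reached 124 on ABR17_control and 981 on WT_control. The normalised levels were 7.93 on ABR17_control and 9.59 on WT_control, a difference of −1.66 ± 0.07 (3.17-fold lower). It was counted under the same 17 alternatives, from −1.33 to −2.43. On the same arrays PUC2MM had a blank-subtracted ratio of 0.0952, of the same order as the 0.127 of miR5021, and its part in this result was not tested.

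Below the 2-fold limit, 4 further miRNAs had differences between −0.5 and −1. In the case of miR319c, which targets TCP factors of leaf growth, the spots read 184 to 270 on ABR17_control (median 238) and 657 to 1070 on WT_control (median 930), and the difference was −0.71 ± 0.08. Its relative miR319a (C20U apart) differed by −0.09 ± 0.08, although its blank-subtracted ratio of 0.168 was close to the 0.178 of miR319c. The size of the miR319a difference thus depended on the scaling, and without normalisation it was −1.72. For miR824, a regulator of the MADS-box gene AGAMOUS-LIKE16, the spots read 144 to 183 on ABR17_control (median 166) and 686 to 900 on WT_control (median 774). Its ratio of 0.0956 was the lowest among the 30, and its normalised difference was −0.56 ± 0.05, with no overlap of spots. It ran from −2.34 to −0.24 under the alternatives and was counted lower under 8 of 17.

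Copper homeostasis is served by miR398, which targets copper/zinc superoxide dismutases, and by miR408, which targets plantacyanin and laccases. The spots of miR398a read 156 to 185 on ABR17_control (median 173) and 392 to 970 on WT_control (median 859), and its difference was −0.52 ± 0.13. Those of miR398b (U21G from miR398a) read 170 to 503 on ABR17_control (median 197) and 823 to 940 on WT_control (median 869), with a difference of −0.66 ± 0.14. The 503 was a single spot far above the other 11 of that probe. Both were lower under every alternative tried, miR398a from −0.38 to −2.31 and miR398b from −0.56 to −2.09. The difference of miR408 was 0.10 ± 0.05, with the opposite sign under 8 of 17 alternatives and as low as −1.59. The blank-subtracted ratios were 0.101 for miR398a, 0.170 for miR398b and 0.245 for miR408. Under the main processing the copper list thus had 3 detected members of 6, none counted, and a median of −0.52. Among the 17 alternatives miR398a was counted lower under 7, and miR398b and miR408 under 4 each.

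Among the higher differences under the 2-fold limit were both detected members of the miR171 family, which target the GRAS factors of the HAIRY MERISTEM type. The spots of miR171a read 176 to 260 on ABR17_control (median 222) and 370 to 454 on WT_control (median 422), and its difference was 0.84 ± 0.07 (−0.57 without normalisation). Those of miR171b read 140 to 186 on ABR17_control (median 166) and 286 to 359 on WT_control (median 324). Of its 12 spots, 9 on ABR17_control and 10 on WT_control passed the threshold. The difference of miR171b was 0.55 ± 0.07 (−0.50 without normalisation). The blank-subtracted means of miR171a and miR171b were 108 and 52.1 on ABR17_control, against 182 and 91.0 on WT_control. The sign turned under 4 alternatives for miR171a and under 3 for miR171b.

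The auxin signalling list, with 5 of 7 probes detected and all of them on both arrays, had no counted member. Its highest difference was that of miR167a, a regulator of the auxin response factors ARF6 and ARF8: the spots read 328 to 483 on ABR17_control (median 440) and 776 to 1040 on WT_control (median 921), and the difference was 0.66 ± 0.06, with the opposite sign under 7 alternatives. The differences were 0.46 ± 0.06 for miR390a, which starts trans-acting siRNA production, 0.35 ± 0.15 for miR167d and 0.24 ± 0.12 for miR167c, and miR160a was a tie of rank. The list median of 0.35 was −0.94 without normalisation and negative under 7 of 14 alternatives.

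Families linked to abscisic acid in earlier Arabidopsis work had 5 of 18 probes detected, none counted, with a median of 0.00 (range 0.00 to 0.23). They were miR159a, miR159b and miR159c, which target GAMYB-like factors, the ARF-targeting miR160a, and miR168a, which targets ARGONAUTE1. The spots of miR159b read 1151 to 1284 on ABR17_control (median 1216) and 1235 to 1650 on WT_control (median 1395), and its difference of 0.23 ± 0.05 was the highest of the 5. No probe of the NF-YA-targeting miR169 family was detected on either array (0 of 5), and of the phosphate and sulfate list 1 of 12 was, miR395b, on WT_control only.

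The leaf polarity miRNAs miR165a and miR166a, which target class III homeodomain-leucine zipper genes, held ranks 3 and 2 on both arrays, so their differences of 0.00 are ties. The difference of miR854a, rank 1 on both arrays, is a tie as well. Its spots read 2746 to 3465 on ABR17_control (median 3148) and 4028 to 5466 on WT_control (median 4537), a blank-subtracted ratio of 0.692, close to the median of all 30. In the authors' deposited table it read 2913 for ABR17_control and 7449 for WT_control. The tasiRNA and PPR list had 3 of 6 probes detected and a median of 0.26, with miR173 at 0.26 ± 0.06 and miR161.1 at −0.06 ± 0.08, and none counted. The list's median had the opposite sign under 7 of 14 alternatives and miR173 under 8 of 17, both as low as −0.96. The list of families of the Brassicaceae or of Arabidopsis had 7 of 83 probes detected, with miR163 counted higher and none lower. The conserved families had 28 of 54, with miR164c counted higher and miR156h lower (median 0.03 over 24). The remaining counted miRNA, miR5021, was in neither of these lists. Over all 39 detected miRNAs 4 were counted (10.3%).

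Of the 9 miRNAs detected on WT_control only, miR158a of the Brassicaceae gave a bound besides miR156h. Its spots read 94.0 to 115 on ABR17_control (median 103) and 469 to 751 on WT_control (median 603). The spot values are far apart, yet the bound is −0.40, because it is set against the lowest level detected on ABR17_control, 7.29. The measured normalised levels were 6.22 on ABR17_control and 7.69 on WT_control, a difference of −1.47. Under 16 alternatives the value of miR158a ran from −1.82 to −0.32, and it was counted lower under 7 of them. The spot error of 0.08 belongs to the measured levels of miR158a, not to the bound. The 7 without a value were miR158b, miR172a, miR172b*, miR391, miR395b, miR834 and miR2936. Relative to the blank mean, their mean densities lay between −11.6 and 17.3 on ABR17_control and between 67.9 and 226 on WT_control. On ABR17_control 1 spot of these 7 passed the threshold, a spot of miR395b.

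Repeat spots of the arrays did not overlap after normalisation for 11 of the 39 miRNAs (28.2%). Over the 30 miRNAs on both arrays, levels on ABR17_control and WT_control correlated at r = 0.886 (Spearman's rho 0.841), as a description across miRNAs that share their arrays. The differences correlated with sequence length at r = 0.48, with GC content at r = 0.26 and with purine content at r = −0.05. With length, the log2 ratio of the blank-subtracted densities, which is free of the normalisation, correlated at r = 0.18.

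The same genotypes under salt were measured on another pair of arrays, which had closer blank levels (86.5 on ABR17_salt and 84.8 on WT_salt). There none of the 62 miRNAs detected on at least 1 array was counted (0%). Of the 13 miRNAs with a difference of 0.5 or more without salt, 2 had the same sign under salt and 11 the opposite sign. The pair with the same sign was miR398a (−0.42 ± 0.04 under salt) and miR398b (−0.58 ± 0.03). The sign under salt turned under 2 of 14 alternatives for miR398a (to 0.06 at most) and under 1 for miR398b (0.01). For miR163 the difference under salt was −0.09 ± 0.08. The differences under salt of miR156h (0.85 ± 0.07) and miR5021 (0.33 ± 0.07) were positive. Relative to the blank mean, miR156h averaged 84.9 on ABR17_salt but 19.6 on WT_salt, where the detection threshold was a density of 101. Its value under salt thus rests on a WT_salt level near the threshold. With 1 array a group, no test of the difference between the pairs of arrays was possible.

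**Figure D3:**
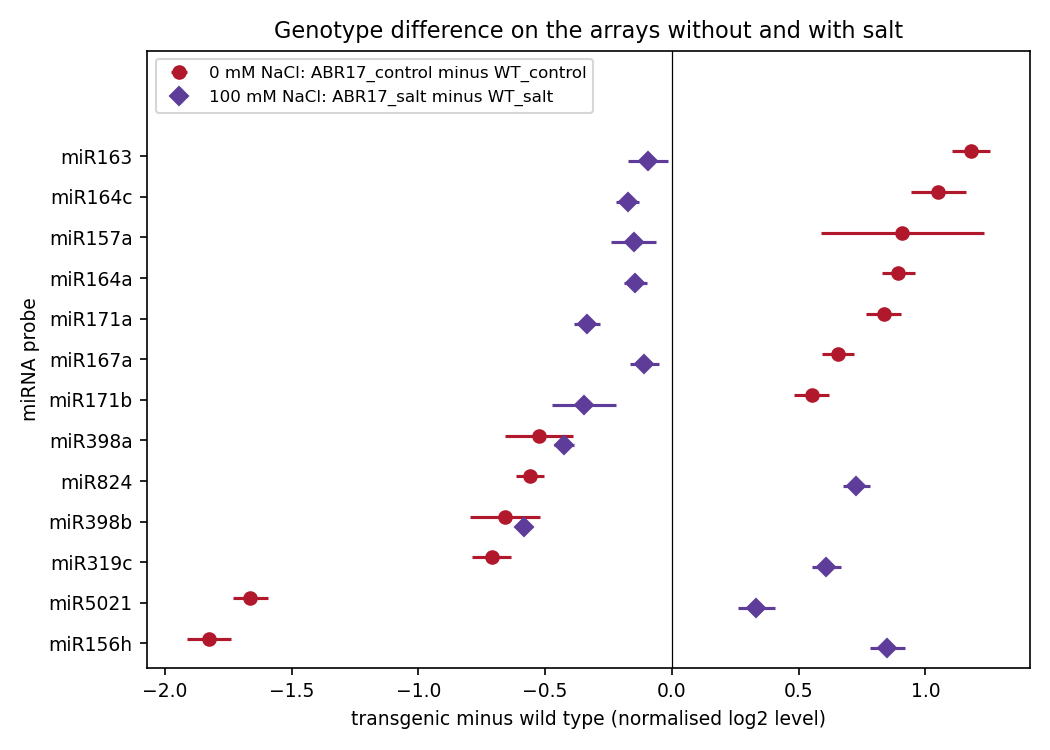
Difference between ABR17 and wild type (horizontal axis, normalised log2 level) on the arrays at 0 mM NaCl (circles) and at 100 mM NaCl (diamonds) for the 13 miRNA probes (vertical axis) with a difference of 0.5 or more without salt, with bars for the SE of repeat spots. The diamonds of miR398a and miR398b lie on the same side of 0 as their circles and the other 11 on the opposite side. The circle of miR156h is a bound, and its bar is the SE of the measured levels.

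The counted miRNAs were followed through 17 alternatives, the 1.5-fold size rule left out. Those that altered detection alone could change the bound of miR156h. They could not change the values of miR163, miR164c and miR5021, which were detected on both arrays, so there they repeat the main result. Both miR156h and miR5021 were counted under all 17, whereas miR163 was counted under 10 and miR164c under 8, these repeats included.

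**Figure D4:**
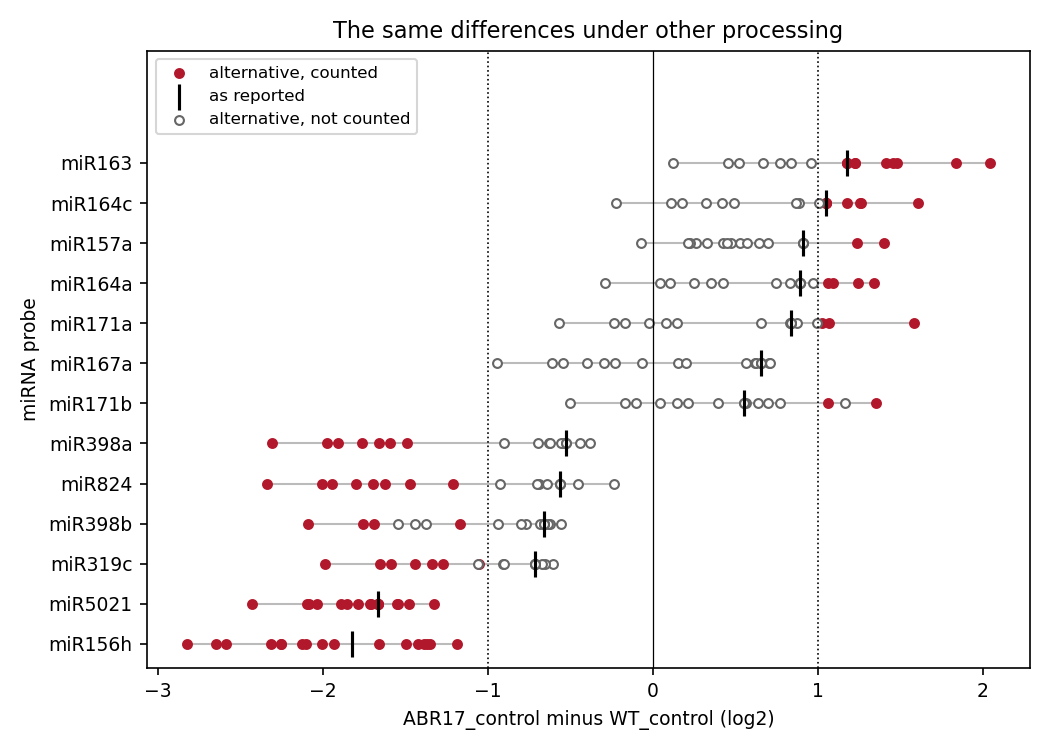
Difference ABR17_control minus WT_control (horizontal axis, log2) of the same 13 miRNA probes (vertical axis) as reported (black tick) and under each alternative (points, red where counted), with dotted lines at the 2-fold limits. All points of miR156h and miR5021 lie below −1, and those of miR164c run from −0.22 to 1.61.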

How the data were processed

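The small RNA of each group was labelled with Cy3 and hybridised to a single-colour array by a service provider, per the labels' protocols. The deposited density of a spot is its mean intensity, per the file headers. It is linear, and blank spots well above 0 show that no background was taken off. The deposited SD over a spot, also an intensity, was not used. The authors also deposited a table of 1 processed intensity per miRNA and array, and the sources used here do not give its correction and scaling. Its log2 values correlated with log2 blank-subtracted densities at r = 0.998 for ABR17_control and 0.987 for WT_control over 30 miRNAs, and its column medians were 11.2 and 12.6: it is linear and uncentred, and its scaling between arrays stays unknown.

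Densities of all 3968 spots were corrected by normexp with an offset of 50 (limma 3.58.1, R 4.3.3), taken to log2, averaged over 12 spots and quantile normalised over the miRNA probes of the 4 arrays. Where a miRNA was detected on 1 array, the other entered at the higher of its own level and the lowest detected level of that array. A bound is given where it points to the brighter array. The calculation was tested on simulated data in which the miRNA signal of all 4 arrays was built from WT_control. That test checked only the sign of added changes in miRNAs detected on both arrays. It did not cover a difference in signal scale between arrays. The number of arrays, 1 a group, limits the precision. Full values are given for miRNAs counted or with a difference of at least 0.5, others by range or list. The members, lists and rules were chosen with earlier results of these data known. Alternatives covered background, normalisation, spot summary, detection, size rule and the authors' deposited values. Sequences are those in the array files, and loci come from the RefSeq gene table (TAIR10.1), whose coordinates were not used.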

Additional observations from a re-analysis of the deposited data

Results flagged for a closer look

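The genotype difference had opposite signs without and with salt, beyond 2 SE of the spots under salt, for 8 miRNAs, and the difference between the pairs of arrays was not tested. Lower in the transgenic without salt and higher under salt were miR156h (−1.83 and 0.85), miR5021 (−1.66 and 0.33), miR319c (−0.71 and 0.61) and miR824 (−0.56 and 0.73). Higher in the transgenic without salt and lower under salt were miR164c (1.05 and −0.17), miR164a (0.89 and −0.14), miR171a (0.84 and −0.33) and miR171b (0.55 and −0.35). The signs under salt of miR156h, miR5021, miR319c, miR824 and miR171b held under all 14 alternatives run there, whereas those of miR164c, miR164a and miR171a turned under 3 each. Each no-salt value uses the WT_control array, the brightest in its blank spots. The value of miR156h under salt uses a WT_salt level near the detection threshold, 19.6 above the blank mean.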

How the results depend on the processing

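With 1 array a group no replicate could be left out. No paired analysis was possible because each group has 1 array and the comparison comes from no test. The main counts were 2 higher and 2 lower. Both lower miRNAs were among those counted under every alternative, and the higher ones were not. The count of higher miRNAs was 5 with the blank mean subtracted, with an offset of 16 and with a 1.5-fold size rule, 4 with quantile normalisation within each pair of arrays and in the authors' deposited values, 1 with the median of repeat spots, and 0 with no background correction, both 75th percentile scalings, no normalisation, calibration or 5S rRNA scaling and median centring. The count of lower miRNAs was 9 with the 75th percentile of miRNAs detected on all 4 arrays and with 5S rRNA scaling, 7 with the 75th percentile of all miRNA probes and with calibration scaling, 4 with cyclic loess, 3 with no detection filter, 12 with no normalisation, 8 with median centring and 6 in the authors' deposited values. The cause was not tested. The median over miRNAs on both arrays, 0.00, moved to −0.54 without normalisation, −0.21 with 5S rRNA scaling, −0.15 and 0.17 with the 75th percentile scalings, 0.10 with calibration scaling and 0.14 in the authors' deposited values. The difference of miR164c reversed to −0.22 without normalisation. Of 32 miRNA differences 16 turned sign under at least 1 alternative, as did 8 of 11 list medians. Leaving out stray repeat spots was chosen after seeing the data and changed neither count. On ABR17_control the blank mean lay above the median miRNA spot, which limits what could be detected there.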

Other observations

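Among the 174 miRNAs detected on neither array, several probes lay near the WT_control threshold of 298, those of the sulfate-linked miR395a, the GRF-targeting miR396a and the AP2-targeting miR172c among them. The density of miR395a averaged 133 on ABR17_control and 299 on WT_control, where 5 spots were above the threshold. The density of miR396a averaged 103 on ABR17_control and 298 on WT_control, and that of miR172c 104 on ABR17_control and 291 on WT_control. On ABR17_control miR396a and miR172c lay below the blank mean of 111. Single spots far from the median of their probe were found 10 times on ABR17_control and 13 times on WT_control. The widest was a spot of miR414 on ABR17_control at 1099, where the median of its repeat spots was 104. Such a spot lay on a detected miRNA for miR398b on ABR17_control and for miR157a, miR167c, miR167d and miR398a on WT_control. The calibration probe PUC2PM-20B read 115 ± 7.78 on ABR17_control, near the blank level, and 3664 ± 901 on WT_control (SD of spots).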
